A study of Homo sapiens with 120 samples.

Results

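The cytosolic ribosomal protein genes were taken as every gene whose symbol is RPL or RPS with a number and at most a paralog suffix, plus the stalk and RPSA symbols, without pseudogenes and without the S6 kinases. The rule used names and no measured value. It found 78 of the 20046 genes analysed, 50 of the large and 28 of the small subunit. Some other genes that the rule covers were not analysed here. The cells were HepG2, a human hepatocellular carcinoma line, and each flask was exposed for 72 h to a nanoparticle powder in culture medium before its total RNA was hybridised to an Illumina HT-12 bead array. The study compared powders from different vendors. Titanium dioxide from Degussa (A), Mknano (H) and Acros (I), and cerium dioxide from Nano Amor (B and M) and Alfa Aesar (C, D and L), were given at 0.3, 3 and 30 µg/mL, which makes 24 groups of 4 or 5 arrays beside 8 untreated controls and uses 119 arrays. The letters are the labels' codes, the series text speaks of fewer formulations than codes, and all flasks come from a single cell line.

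The cytosolic ribosome is built of a small subunit, which reads the messenger RNA, and a large subunit, which joins the amino acids, and nearly all of its proteins are needed in equal numbers. Their messenger RNAs are among the most abundant of a dividing cell. Most begin with a C and a run of pyrimidines (a terminal oligopyrimidine start), through which the growth kinase mTOR and the protein LARP1 control their translation and stability.

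That start was read for the members on which the results turn. Each sequence below runs from 30 bases before to 20 bases after the start of the gene in the RefSeq annotation of GRCh38.p14, 5′ to 3′ on the strand of the gene. The capitals mark the longest run of a C followed by at least 4 C or T that begins within 10 bases of the start. The first 5 fell with M, and of these RPL34 rose with H and RPS23 with I. The next 4 fell with I, RPS27 fell with M and rose with H and I, and the last 2 are paralogs without such a run. RPL9, which also fell with M, is not shown, and its run of 8 letters begins at base 8 of the annotated transcript.
RPL34: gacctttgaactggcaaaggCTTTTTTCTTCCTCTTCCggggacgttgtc
RPS3A: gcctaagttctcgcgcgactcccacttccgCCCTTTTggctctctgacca
RPS18: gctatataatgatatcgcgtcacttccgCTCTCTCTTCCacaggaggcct
RPS13: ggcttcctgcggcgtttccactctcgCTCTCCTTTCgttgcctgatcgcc
RPS23: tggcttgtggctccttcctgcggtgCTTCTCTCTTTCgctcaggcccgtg
RPL21: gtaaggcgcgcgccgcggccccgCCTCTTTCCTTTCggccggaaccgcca
RPL29: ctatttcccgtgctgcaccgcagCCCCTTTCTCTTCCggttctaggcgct
RPS7: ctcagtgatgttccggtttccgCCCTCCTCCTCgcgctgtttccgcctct
RPL31: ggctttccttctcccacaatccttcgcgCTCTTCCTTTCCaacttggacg
RPS27: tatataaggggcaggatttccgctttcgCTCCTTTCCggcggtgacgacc
RPS27L: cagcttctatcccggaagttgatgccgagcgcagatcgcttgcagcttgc
RPL7L1: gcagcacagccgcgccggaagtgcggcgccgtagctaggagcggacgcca

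The windows lie at chr4:108620546-108620595 for RPL34, chr4:151099598-151099647 for RPS3A, chr6:33272045-33272094 for RPS18, chr2:3575230-3575279 for RPS7, chr2:101002259-101002308 for RPL31, chr13:27251528-27251577 for RPL21, chr1:153990732-153990781 for RPS27 and chr6:42879586-42879635 for RPL7L1, all on the plus strand. Those on the minus strand lie at chr11:17077648-17077697 for RPS13, chr5:82278335-82278384 for RPS23, chr3:51995876-51995925 for RPL29 and chr15:63157458-63157507 for RPS27L. Each holds upstream sequence and the first bases of the annotated transcript. Of the 66 members with a promoter in the RefSeq table, 56 (84.8%) had the pyrimidine start on the transcript strand and 15 (22.7%) had one on the other strand. Among 15843 protein-coding genes the shares were 40.1% and 36.5%, and among all 27305 genes listed there they were 37.4% and 35.0%. The 10 members without it were RPL6, RPL7L1, RPL10L, RPL17, RPL26L1, RPL27, RPS4X, RPS4Y2, RPS27L and RPS29. From 250 bases before to 50 after the start, on both strands, the core of the ETS factors (CCGGAAG) was present in 23 of the 66 members (34.8%) and in 16.5% of protein-coding genes. The core of YY1 (AAGATGGC) was present in 7 (10.6%) and in 4.66%. These are matches of letters and show no binding.

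All values are log2 of the deposited intensities, which reach 14.18 at most and have a median of 6.62 on an array, and a gene is read by its brightest probe. In the untreated cells 39 of the 78 members had a mean above 13, while RPL3L, RPL10, RPL10L, RPL22L1, RPL28, RPL37 and RPL39L lay within 1 of the median of the array. Many ribosomal protein genes have near-identical processed pseudogenes, so a probe may read more than 1 locus, and values of different probes are not compared. A change is a difference of log2 means ± SE, and a member is said to have risen or fallen only where limma's p, adjusted over all 20046 genes, was under 0.05. The array medians were equal by the authors' normalization, so a change is one against the rest of the genes on that array. In such bulk RNA, a loss of cells and a loss of RNA per cell cannot be told apart. Flasks of a group are described as biological replicates, and the precision is limited by their number.

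A principal component analysis of the genes that are not members gave a leading component with 38.1% of the variance, and 9 arrays stood apart on it. These were 2 of M and 2 of H at 30 µg/mL, 1 each of A and L at 30 µg/mL, 1 of I at 3 µg/mL and 1 each of I and L at 0.3 µg/mL, and they took the adjacent places 59 to 67 in the order of deposit. They split the ribosome into members far above and far below their usual level. All 9 lay below every one of the other 110 arrays in 9 members (3.36% of all genes did so), namely RPL19, RPL23, RPL23A, RPLP1, RPS15, RPS19, RPS20, RPS24 and RPS4Y2. All 9 lay above every other array in 7 (2.94% of all genes), namely RPL12, RPL24, RPL35A, RPL36AL, RPS4X, RPS21 and RPS25. RPS20 read 10.73 to 12 on the 9 and 12.61 to 13.36 on the others, and RPS4X read 12.77 to 13.17 against 11.47 to 12.22. What sets these arrays apart was not tested. Many results that rest on them are given with and without them. Others, such as the changes of RPLP1, RPL11 and RPL36AL, are given only with all arrays. Of 11 liver markers, 10 were measured, and their mean level was 12.83 to 13.04 on the control arrays, 12.91 to 13 with I and 12.23 to 13.09 with M at 30 µg/mL. It went down to 11.83 with A, 12.09 with H and 12.33 with L at 30 µg/mL, to 12.26 with I at 3 µg/mL, and to 12.28 with I and 12.38 with L at 0.3 µg/mL, all groups that hold an array that stands apart. The fibroblast list (6 genes) averaged 6.62 to 6.74 in controls and 6.84 to 7.09 with M at 30 µg/mL, with COL1A2, COL3A1, DCN and LUM at background (at most 6.93 on any array). The other 2, COL1A1 and PDGFRB, had control means of 6.91 and 7.05 and reached 8.61 and 7.62 on single arrays. The part of these lists in the results was not tested.

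Medians over the members of a subunit were small beside the changes of single members, which go both ways, and 39 of the 78 members read above 13 where the highest value of an array is 14.18. The median change of the large subunit members lay between -0.14 and 0.04 (mean over arrays), and that of the small subunit between -0.21 and 0.06, over the 24 groups. The controls themselves ran from -0.01 to 0.03 for the large and from -0.07 to 0.09 for the small subunit. Every large subunit median was below every control with A and M at 3 and 30, I at 30 and L at 0.3 µg/mL. The highest arrays there read -0.05 and -0.07 (A), -0.02 and -0.03 (M), -0.02 (I) and -0.03 (L). The small subunit with M was below every control at 30 µg/mL, where the 5 arrays read -0.15, -0.18, -0.33, -0.20 and -0.19, and the 4 arrays of L at 0.3 µg/mL, at -0.11, -0.11, -0.14 and -0.12, were so too. As medians over the members' fitted changes, M at 30 µg/mL gave -0.06 for the large and -0.22 for the small subunit (-0.11 and -0.20 without the 9 arrays), beside 0.01 for all genes. At least 1 member rose or fell in 12 of the 24 groups.

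**Figure D1:**
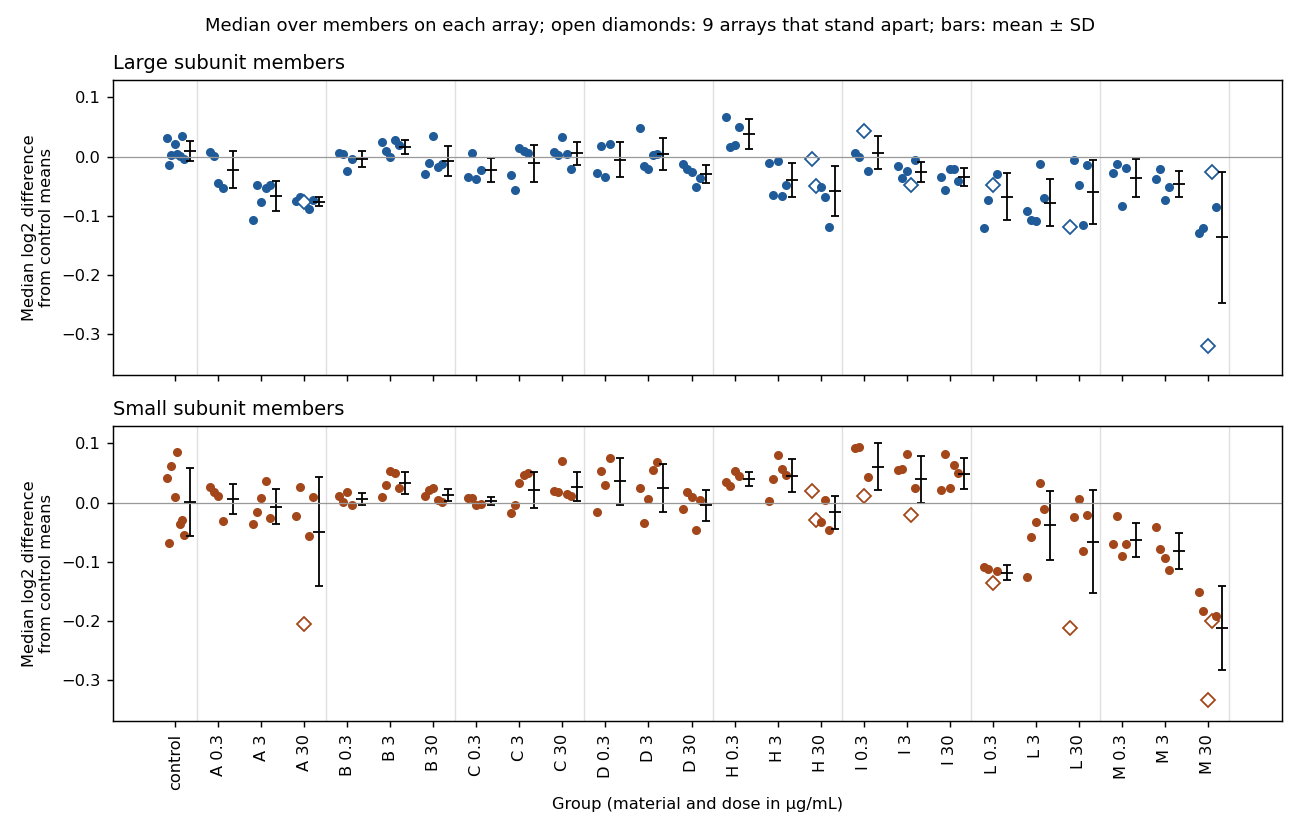
Median log2 difference of the members of each subunit from their control means (vertical axis) on each of 119 arrays, by group (horizontal axis, material and dose in µg/mL). Points are arrays, open diamonds are the 9 arrays that stand apart, and bars are group means ± SD; the small subunit is lowest with M at 30 µg/mL and low on all 4 arrays of L at 0.3 µg/mL.

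Cerium dioxide M at 30 µg/mL gave the broadest fall. In all, 28 of the 78 members fell (14 of each subunit), where 6.87% of all genes fell, and 1 rose, where 10.5% of all genes rose. The falls ran from 0.15 to 1.37 on the log2 scale with a median fall among those called of 0.53. The small subunit gave RPS3A, RPS13, RPS14, RPS18, RPS20, RPS23, RPS24, RPS27, RPS27L, RPS28, RPS3, RPS6 and the Y-linked copies RPS4Y1 and RPS4Y2. In 10 members, 4 of the large and 6 of the small subunit, every M array lay below every control, which 1.43% of all genes did. With the 9 arrays left out, 2 of them from the 5 of M, 22 members fell and 3 rose, where 3.54% and 4.55% of all genes did, and 16 of the 28 were called again.

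RPL34, a large subunit protein, had the smallest p. Its control arrays ran from 9.77 through a median of 10.54 to 10.74, and the M arrays read 9.0, 9.15, 8.68, 9.33 and 9.19. All 5 treated arrays were below the lowest control, with no overlap. The change was -1.34 ± 0.14, or 2.52-fold lower (limma adjusted p = 7.84e-12), and a second, dimmer RPL34 probe fell by 0.75.

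RPL9, which lies near the base of the stalk of the large subunit, ran from 13.19 through 13.72 to 13.80 in controls and read 12.55, 12.72, 11.25, 12.17 and 12.64 with M. Again every treated array was below every control, and the third M array, which is among the 9, was the lowest. The change was -1.37 ± 0.20 (2.58-fold lower, limma adjusted p = 1.21e-07), and -1.0 without the 9 arrays. Of its other 2 probes one fell by 2.38 and the other changed by -0.35 (limma adjusted p = 0.501 over all probes).

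RPS3A, at the messenger exit side of the small subunit, ran from 12.32 through 12.98 to 13.24 in controls and read 11.93, 12.28, 11.10, 11.12 and 12.23 with M. The groups did not overlap, although the second and the fifth M array lay just under the lowest control. The change was -1.19 ± 0.18 (2.28-fold lower, limma adjusted p = 5.28e-07), and -0.77 without the 9 arrays. Both other RPS3A probes fell as well, with changes of -2.04 and -1.68.

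RPS13 ran from 12.82 through 13.07 to 13.31 in controls and read 12.59, 12.63, 12.56, 12.29 and 12.47 with M. RPS18, in the head of the small subunit, ran from 12.14 through 12.44 to 12.54 and read 11.68, 11.94, 10.72, 10.73 and 11.98. Neither pair of groups overlapped. RPS13 fell by 0.55 ± 0.06 (limma adjusted p = 9.02e-11) and by 0.50 without the 9 arrays, of which the fourth M array was the lowest of the 5. RPS18 fell by 0.99 ± 0.15 (limma adjusted p = 2.68e-07) and by 0.53 without them.

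RPS23, which sits at the decoding centre, ran from 9.72 through 10.00 to 10.37 in controls and read 9.38, 9.44, 9.21, 8.83 and 9.45 with M. It fell by 0.77 ± 0.11 (limma adjusted p = 1.85e-07), with no overlap. RPS27 ran from 13.45 through 13.64 to 13.85 and read 13.20, 12.95, 13.22, 13.53 and 13.20, so that 4 of 5 arrays were below the controls. It fell by 0.40 ± 0.06 (limma adjusted p = 1.65e-06), and its other 2 probes fell by 0.32 and 1.90. RPL37, whose probe reads near background (7.29 to 7.66 in controls), fell by 0.50 ± 0.09 (limma adjusted p = 9.3e-06), with 4 of 5 arrays below every control.

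Other falls with M were smaller without the arrays that stand apart, where 3 arrays of M remained. RPL23, a large subunit protein that can bind MDM2, read 11.46, 11.42, 9.07, 9.13 and 11.25 with M against 11.01 to 12.32 in controls. Only the third and the fourth array were below the controls, and the change of -1.31 ± 0.31 (limma adjusted p = 0.00105) was -0.40 without the 9 (adjusted p = 0.0932). RPS20 read 12.61, 12.73, 11.20, 10.73 and 12.77 against 12.92 to 13.17. There all 5 arrays were below the controls, and the change of -1.05 ± 0.21 became -0.36 without the 9 (limma adjusted p = 0.000298) with the call kept. RPL13, RPL14, RPL22, RPL28, RPL35, RPL38, RPS4Y1, RPS4Y2, RPS6, RPS24 and RPS28 also lost the call without the 9 arrays, with changes that then ran from -0.34 for RPS28 to 0.12 for RPS24 and RPS4Y1. RPL27 and RPS14 fell further without them, by 0.47 and 0.45 against 0.30 and 0.28 with them.

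The dose within M was tested without the controls. Between 30 and 0.3 µg/mL 14 members fell and 0 rose, where 2.13% and 5.48% of all genes did, and 28 members had an unadjusted p under 0.05. With the 9 arrays left out 9 fell and 1 rose, where 1.66% of all genes were called. RPS13 read 12.80 to 13.19 at 0.3 µg/mL and fell by 0.46 ± 0.07 (limma adjusted p = 1.65e-05). RPL34 read 9.66 to 10.48 and fell by 0.88 ± 0.17, and RPS18 read 12.24 to 12.42 and fell by 0.90 ± 0.17 (limma adjusted p = 0.000274 and 0.000298). In each of these the 5 arrays at 30 µg/mL were below all 4 at 0.3 µg/mL. At 3 µg/mL against control 2 members fell, RPS23 by 0.64 ± 0.12 (limma adjusted p = 0.00132) and RPL27 by 0.27 ± 0.07 (0.0215), and 0 rose, where 0.384% and 0.574% of all genes did. With the 9 arrays left out 7 fell there, where 3.44% of all genes were called in either direction. The 4 arrays of RPS23 at 3 µg/mL, at 9.34, 9.50, 9.30 and 9.44, were below every control. At 0.3 µg/mL limma called 0 members and 0% of all genes, with 8 members at an unadjusted p under 0.05, and in the fit without the 9 arrays RPS3A fell, by 0.51, where 0.17% were called.

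The count of members called with M depended on the arrays and the model. It was 18 in place of 29 in either direction without the third M array, 18 with sets of 12 arrays in the order of deposit as a term, and 9 when M at 30 µg/mL was fitted with the controls alone. Under these settings the share of all genes called was not counted. RPL34, RPL9, RPL37, RPS3A, RPS13, RPS18, RPS23 and RPS27 kept their call under each of these.

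**Figure D2:**
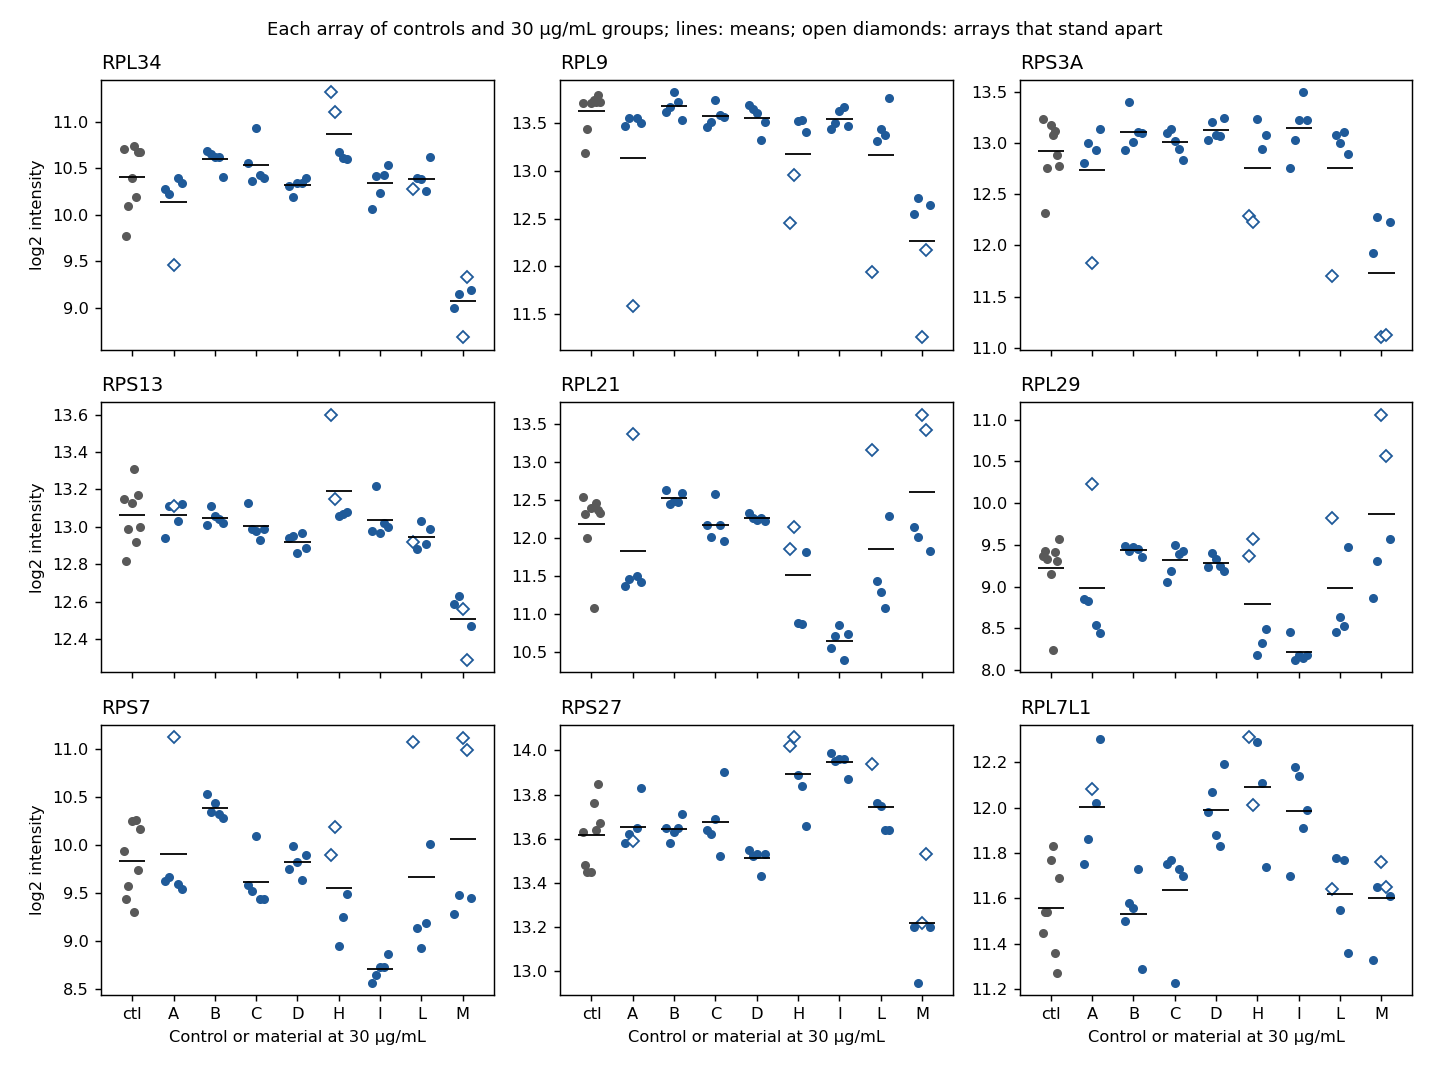
Log2 intensity (vertical axis) of 9 members on each control array and each array at 30 µg/mL, by material (horizontal axis); lines are group means and open diamonds are arrays that stand apart. RPL34, RPL9, RPS3A and RPS13 are low with M, RPL21, RPL29 and RPS7 are low with I, and RPS27 is low with M and high with I.

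Titanium dioxide I at 30 µg/mL had 6 falls and 3 rises, where 1.30% and 2.62% of all genes fell and rose. Without the 9 arrays, none of which belongs to this group, it had 14 falls and 8 rises, where 3.69% and 6.55% did. With all arrays RPS23 and RPS27 were called with M too, in the opposite direction. The overlap of calls with I and with M over all genes was not counted. The 6 that fell were RPL21, RPL29, RPL31, RPL36A, RPS2 and RPS7, and the 3 that rose were RPL7L1, RPS23 and RPS27.

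RPL21, a large subunit protein, ran from 11.08 through 12.36 to 12.55 in controls and read 10.56, 10.71, 10.86, 10.40 and 10.74 with I. All 5 were below the lowest control. That control, the eighth, was itself 0.93 below the next lowest. The change was -1.54 ± 0.28, or 2.90-fold lower (limma adjusted p = 0.000259).

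RPS7, a small subunit protein that can bind MDM2 and that is mutated in some families with Diamond-Blackfan anemia, ran from 9.30 through 9.84 to 10.26 and read 8.57, 8.65, 8.73, 8.73 and 8.87. It fell by 1.12 ± 0.26 (limma adjusted p = 0.00416) with no overlap, and a second probe fell by 0.96. RPL29, known also as a heparin-binding protein, ran from 8.24 through 9.35 to 9.57 and read 8.45, 8.12, 8.18, 8.14 and 8.18. Of its 5 treated arrays 4 were below the lowest control, again the eighth. It fell by 1.01 ± 0.24 (limma adjusted p = 0.00569), and a second probe by 1.09.

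RPL31, next to the exit of the peptide tunnel, ran from 13.10 through 13.40 to 13.63 and read 12.82, 13.02, 12.64, 13.03 and 12.96, a fall of 0.49 ± 0.13 without overlap (limma adjusted p = 0.013). RPL36A ran from 7.10 through 7.87 to 8.00 and read 7.26, 7.28, 7.06, 7.24 and 7.19. It fell by 0.56 ± 0.15 (limma adjusted p = 0.0203), with only 1 array below the eighth control. Its second probe, near background, changed by -0.06. RPS2, near the entry of the messenger channel, fell by 0.31 ± 0.09 (limma adjusted p = 0.0353), with 3 of 5 arrays below the controls.

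The same 5 members, RPL21, RPL29, RPL31, RPL36A and RPS7, were below control with H at 3 µg/mL and with L at all doses too, and had higher medians on the arrays that stand apart than on the others. They were grouped after their values were seen, so these values are a description. With A at 0.3 µg/mL all 5 were below control as well, from -0.63 for RPL21 to -0.11 for RPL36A, uncalled. With H at 0.3 µg/mL RPL21 and RPL29 were 0.13 and 0.25 above control. With A at 30 µg/mL, a group that holds an array that stands apart, RPL36A and RPS7 changed by 0.00 and 0.07 over all arrays. RPL21 changed by -1.13 and -1.19 with I at 0.3 and 3 µg/mL, by -1.14 with H at 3 µg/mL (limma adjusted p = 0.013, 0.0033 and 0.0195), and by -0.66 and -0.56 with A and L at 3 µg/mL (limma adjusted p above 0.05). With all arrays it was called in 4 of the 24 groups and without the 9 arrays in 10, and RPL29 in 2 and 9, RPL31 in 2 and 8, RPL36A in 2 and 8, and RPS7 in 2 and 8. On the 9 arrays RPL21 had a median of 13.16, against 12.14 on the other 110.

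Single arrays went against their groups in these members. With H at 3 µg/mL RPL21 read 12.28 on the first array, inside the range of the controls, and 10.34, 10.74, 10.90 and 10.98 on the others. With L at 30 µg/mL it read 13.16, 11.44, 11.30, 11.09 and 12.30, the first of these on an array that stands apart. The eighth control read 11.08 for RPL21, 8.24 for RPL29, 7.10 for RPL36A and 9.30 for RPS7, in each the lowest of the 8 controls, and 13.23 for RPL31, the second lowest. Without that control the number of members called with I at 30 µg/mL was 9, as with it, and it was 4 without the third I array. The share of all genes called was not counted in these fits. In the groups of B, C and D the change of RPL21 lay between -0.11 and 0.34, with 0 calls.

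**Figure D3:**
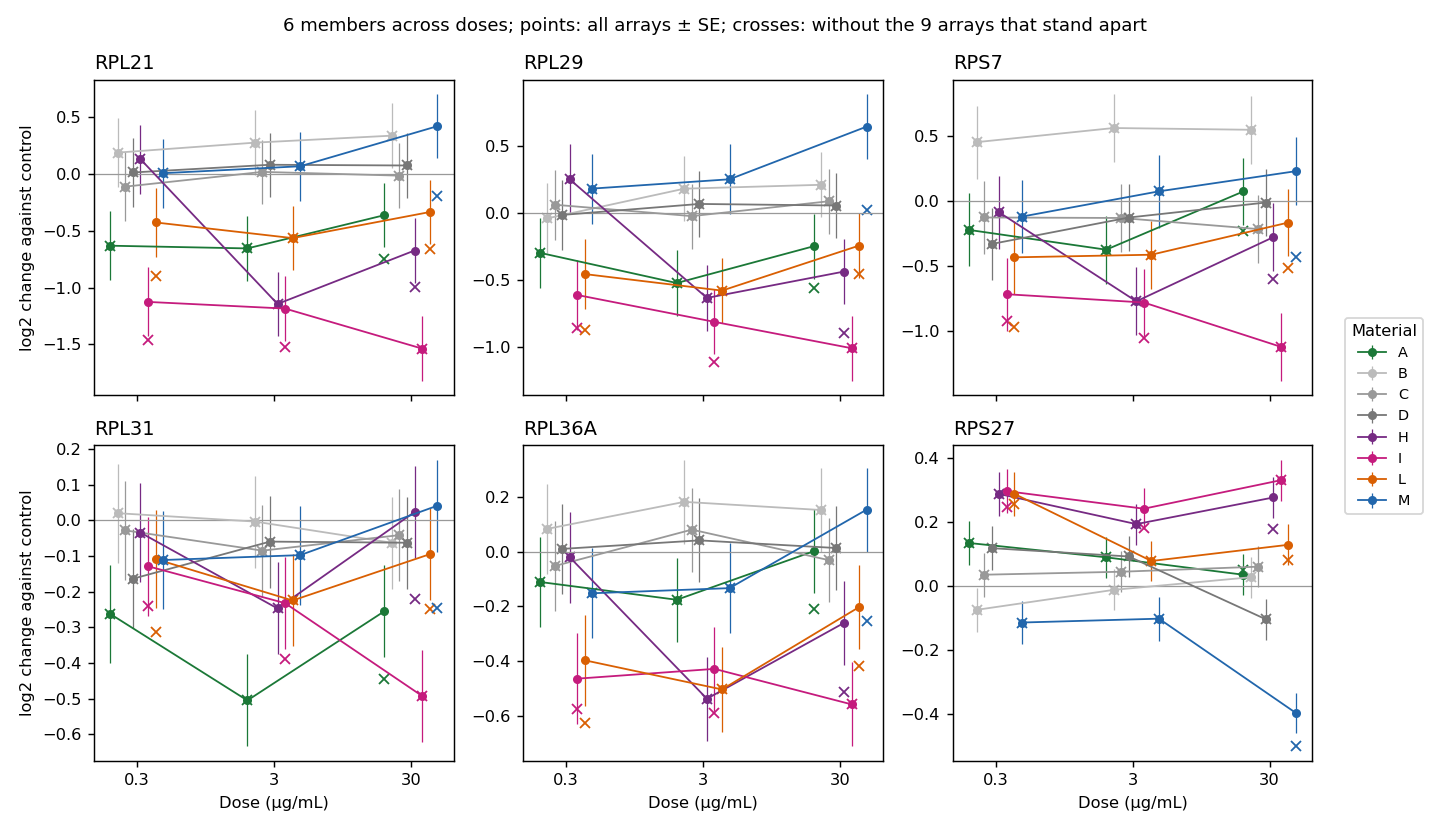
Log2 change against control (vertical axis) of 6 members at 0.3, 3 and 30 µg/mL (horizontal axis, log scale), with a line for each of 8 materials; points are limma changes over all arrays ± SE, and crosses leave out the 9 arrays that stand apart. RPL21, RPL29 and RPS7 lie lowest with I at 30 µg/mL, in the first 5 crosses lie below points where a group holds an array that stands apart, and RPS27 is below 0 with M and above 0 with I.

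Of the rises with I, RPS27 read 13.99, 13.95, 13.96, 13.96 and 13.87 against 13.45 to 13.85 in controls, all 5 above them. It rose by 0.33 ± 0.06 (limma adjusted p = 0.000546), and its other probes changed by 0.18 and 0.60 (limma adjusted p = 0.105 and 0.49 over all probes). RPL7L1, a paralog of RPL7 that acts in large subunit assembly, read 11.70, 12.18, 12.14, 11.91 and 11.99 against 11.27 to 11.83, with 4 of 5 arrays above, and rose by 0.43 ± 0.12 (limma adjusted p = 0.0217). Its second probe fell by 0.63 (limma adjusted p = 0.00373 over all probes), so the direction of RPL7L1 depends on the probe. RPS23 rose by 0.36 ± 0.11 (limma adjusted p = 0.0458), with 3 of 5 arrays above the controls.

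I at the lower doses repeated part of this with the same controls. At 3 µg/mL 3 members fell (RPL21, RPL29 and RPS7) and 2 rose (RPL7L1 by 0.47 and RPS27 by 0.24), where 2.95% and 4.77% of all genes did. Without the 9 arrays 12 fell and 5 rose, where 9.80% of all genes were called. At 0.3 µg/mL RPL21 fell and RPL4 and RPS27 rose, by 0.26 and 0.30, where 1.57% and 4.01% of all genes did, and without the 9 arrays 5 fell and 1 rose, where 4.76% were called. RPL4 then lost the call (limma adjusted p = 0.111). Between 30 and 0.3 µg/mL of I limma called 0 members and 0.00499% of all genes, with 10 members at an unadjusted p under 0.05.

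M and I were also set against each other at 30 µg/mL, without the controls, in a comparison added after the data had been seen. Between them 26 members were lower and 10 higher with M, where 10.2% of all genes were lower and 10.2% higher. As M minus I, RPS27 changed by -0.73 ± 0.07 (limma adjusted p = 1.24e-13), RPS23 changed by -1.13 ± 0.13 (1.34e-11) and RPL34 by -1.27 ± 0.16 (1.04e-09). In all 3 the arrays of M lay below all arrays of I. Over the 8 materials at 30 µg/mL, the F test called 44 of the 78 members, where it called 37.6% of all genes, a difference between materials that includes the arrays that stand apart.

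The other titanium dioxides moved fewer members. With A at 30 µg/mL 5 fell (RPL7A, RPL13, RPL22, RPL23A and RPS28), where 2.35% of all genes fell, and RPL7L1 rose by 0.44 ± 0.12, where 6.16% rose. RPL22, which binds viral and ribosomal RNA and has a paralog that it represses in mice, read 10.59, 10.56, 10.27, 10.86 and 10.74 against 10.75 to 11.38 in controls. It was lower on 4 of 5 arrays and fell by 0.46 ± 0.11 (limma adjusted p = 0.00147), and by 0.37 without the 9. RPL23A, at the exit of the peptide tunnel, read 9.21, 9.09, 8.02, 9.29 and 9.29 against 9.29 to 10.00, and fell by 0.64 ± 0.18, or 0.40 without the 9. The third array, which is among the 9, was the lowest. RPL13 and RPS28 lost the call without it (limma adjusted p = 0.0815 and 0.0909), and in all 10 members were called there without the 9 arrays, where 9.69% of all genes were.

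At 3 µg/mL of A only RPL31 fell, from 13.10 to 13.63 in controls to 12.70, 12.81, 12.85, 13.10 and 12.95. Only the fourth was level with the lowest control. The fall was 0.50 ± 0.13 (limma adjusted p = 0.00826), where 1.32% of all genes fell and 3.07% rose, and without the 9 arrays 7 members fell there, where 10.4% were called. At 0.3 µg/mL limma called 0 members and 0.175% of all genes, with 1 member at an unadjusted p under 0.05. Between 30 and 0.3 µg/mL of A it called 0 members and 0.0249% of all genes, with 9 members under an unadjusted 0.05.

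H at 30 µg/mL had 2 falls and 3 rises, where 3.56% and 5.90% of all genes did, and 2 of its 5 arrays are among the 9. RPL7L1 read 12.31, 12.01, 12.29, 12.11 and 11.74 and rose by 0.54 ± 0.12 (limma adjusted p = 0.00124), with 4 of 5 arrays above the controls. RPS27 read 14.02, 14.06, 13.89, 13.84 and 13.66 and rose by 0.28 ± 0.06, and RPL34 read 11.32, 11.11, 10.68, 10.61 and 10.60 and rose by 0.46 ± 0.14. In both the first and the second array, which are among the 9, were the highest. RPL23A fell by 0.68 and RPL19, which forms a bridge between the subunits, by 0.33. Of these 5 calls only that of RPL7L1 held without the 9 arrays, where 4 members fell, 1 rose and 3.94% of all genes were called. At 3 µg/mL RPL21 fell alone, where 0.344% of all genes fell and 1.02% rose, and without the 9 arrays 9 fell and 1 rose, where 5.08% were called. At 0.3 µg/mL limma called 0 members and 0.015% of all genes, with 15 members at an unadjusted p under 0.05, and in the fit without the 9 arrays RPL19, RPL39 and RPS27 rose, by 0.25, 0.32 and 0.29, where 0.195% were called.

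Between 30 and 0.3 µg/mL of H 4 members fell and 3 rose, where 3.11% and 4.89% of all genes did. RPS29, a small subunit protein, read 13.59 to 13.92 at 0.3 µg/mL and 14.08, 14.05, 14.05, 14.08 and 13.91 at 30 µg/mL. It was higher on 4 of the 5 than on any array at the low dose, and rose by 0.31 ± 0.07 (limma adjusted p = 0.00128). RPL19 read 13.58 to 13.96 and then 12.80, 12.92, 13.35, 13.40 and 13.55, a fall of 0.58 ± 0.13 with no overlap (limma adjusted p = 0.00135). RPL23A fell by 0.94 ± 0.22, and by 0.44 without the 9 arrays, where 15 members fell and 1 rose and 5.51% of all genes were called. Against control, H at 0.3 µg/mL itself changed by -0.23 for RPS29, 0.25 for RPL19 and 0.26 for RPL23A, uncalled with all arrays. Part of each dose difference thus lies in the low-dose group. The controls of RPS29 ran from 13.66 to 14.08.

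Cerium dioxide L moved most members at its lowest dose. At 0.3 µg/mL 8 fell and 2 rose, where 3.73% and 8.47% of all genes did, and without the 9 arrays 20 fell and 6 rose, where 5.71% and 11.1% did. The median change was -0.08 for the large and -0.14 for the small subunit, and 62 of the 78 members were below 0 (79.5%, against 44.7% of all genes). RPS2 read 12.64, 12.80, 12.53 and 12.22 against 12.85 to 13.26 in controls, all 4 below them, and fell by 0.48 ± 0.10 (limma adjusted p = 0.000215). RPS23 read 9.52, 9.55, 9.39 and 9.69, also all below the controls, and fell by 0.50 ± 0.12 (limma adjusted p = 0.00184). RPL4, RPL7A, RPL9, RPL22, RPL37 and RPS6 fell by 0.23 to 0.64, while RPS26 rose by 0.52 and RPS27 by 0.29. The change of RPS27 was -0.0093 with the mean of its probes, and RPL7A lost the call without the 9 arrays (limma adjusted p = 0.182).

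At 3 µg/mL of L only RPL36A fell, by 0.50 ± 0.15 (limma adjusted p = 0.0414), where 1.37% of all genes fell and 2.69% rose, and without the 9 arrays 10 members fell, where 10.3% were called. At 30 µg/mL RPS2, RPL7A and RPL22 fell by 0.35, 0.39 and 0.33 and 0 rose, where 1.67% and 5.23% of all genes did. RPS2 read 12.47, 12.53, 12.57, 12.74 and 13.09, so that 4 of 5 arrays were below the controls. With the 9 arrays left out 5 fell and 1 rose, where 6.63% were called. RPL22 read 10.15 on the first array, which is among the 9, and 10.81 to 10.94 on the others, and lost the call without the 9 (limma adjusted p = 0.322), as did RPL7A (0.0531). Between 30 and 0.3 µg/mL limma called 0 members and 0.015% of all genes, with 4 members at an unadjusted p under 0.05.

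With B, C and D and all arrays in the fit limma called 0 members at any dose, in groups where it called few genes at all. For B it called 0%, 0.015% and 0.743% of all genes at 0.3, 3 and 30 µg/mL, with 4, 5 and 10 members at an unadjusted p under 0.05. For C it called 0%, 0.00499% and 0.0649%, with 1, 0 and 1 members, and for D 0.020%, 0.00499% and 0.015%, with 2, 2 and 4. Between 30 and 0.3 µg/mL it called 0 members in each and 0%, 0.00499% and 0% of all genes for B, C and D, with 2, 1 and 5 members at an unadjusted p under 0.05. RPS27L, with B at 30 µg/mL, read 11.64, 11.95, 11.95, 11.97 and 12.25 against 11.02 to 11.77 in controls. It changed by 0.49 ± 0.15 (limma adjusted p = 0.0962), with 4 of 5 arrays above the controls, and the call was made without the 9 arrays (0.0147). No array of B is among the 9, and in the fit without them 3 members fell and 2 rose with B at 30 µg/mL, where 4.27% of all genes were called, and 1 fell at 3 µg/mL, where 0.444% were. C and D had 0 members called in that fit too. RPS28 changed by -0.66 ± 0.26 and RPL13A by -0.25 ± 0.09 with B, RPL22 by -0.31 ± 0.11 with C, and RPL7L1 by 0.43 ± 0.12 with D (limma adjusted p = 0.25, 0.167, 0.288 and 0.169). B and M are both labelled as cerium dioxide from Nano Amor, and RPS27L changed by 0.49 with B and by -0.80 with M.

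**Figure D4:**
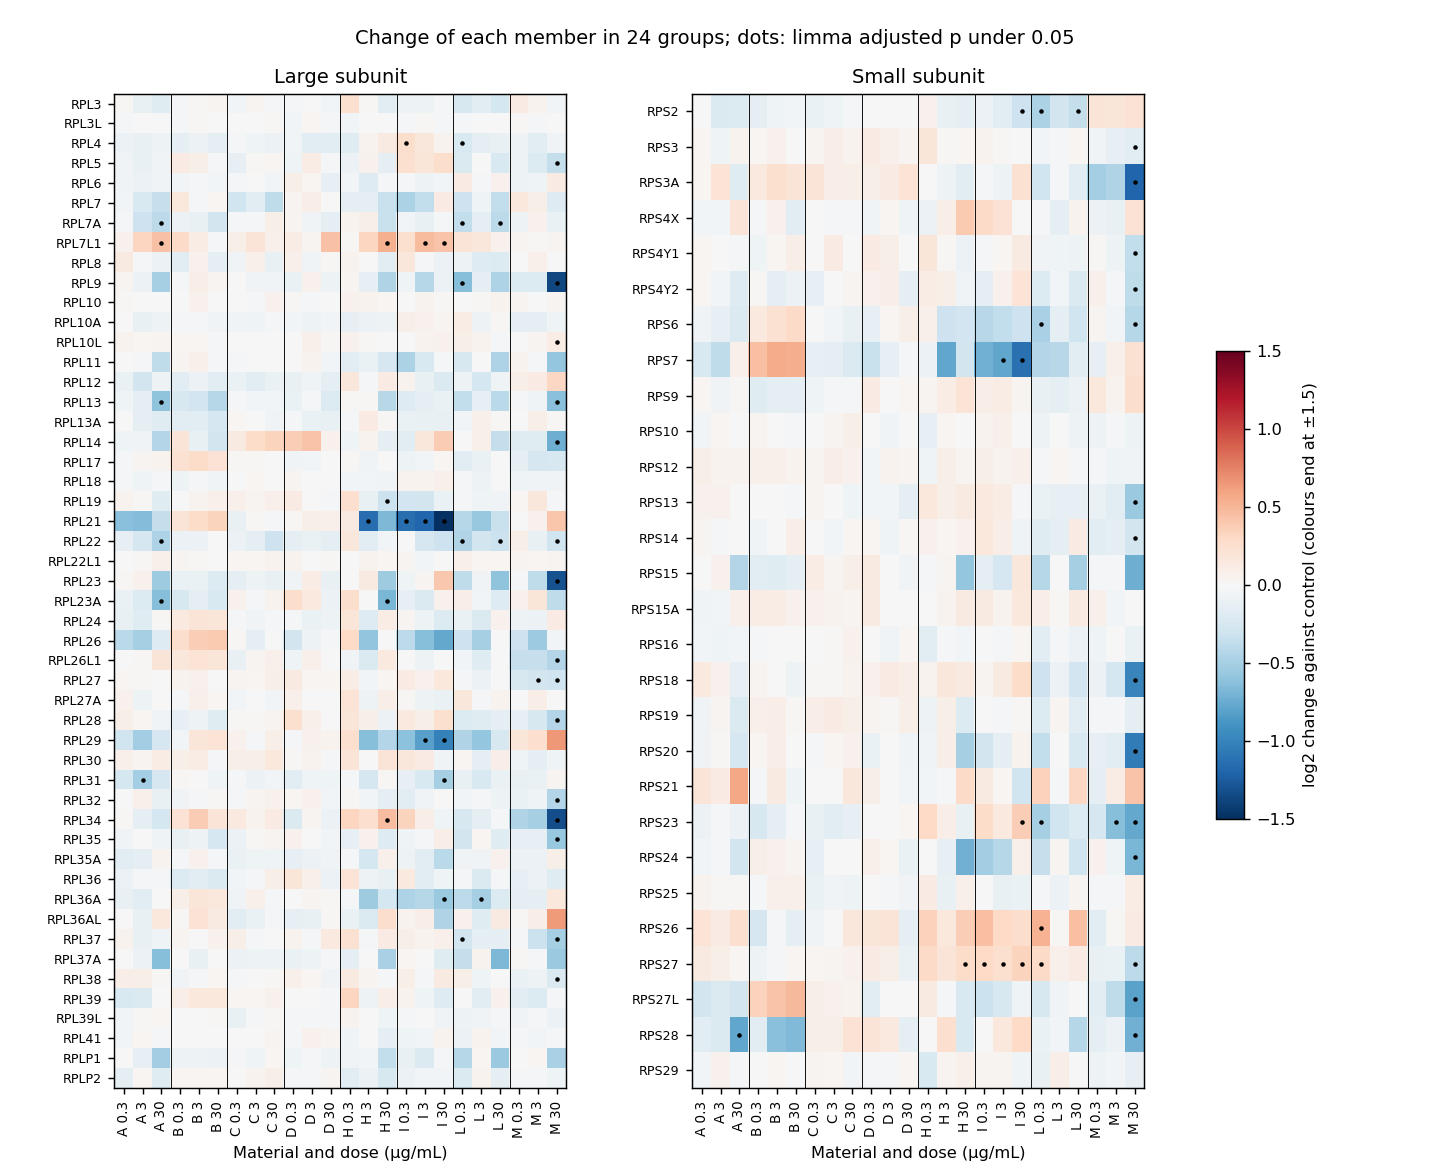
Log2 change against control of the 78 members (rows, large subunit left and small subunit right) in 24 groups (columns, material and dose in µg/mL), in colour, blue for lower and red for higher. Dots mark limma adjusted p under 0.05; M at 30 µg/mL has 29 of them, and B, C and D have 0.

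With all arrays RPS27 was called in the most groups, 6 of 24, with 1 fall (M at 30 µg/mL) and 5 rises (H at 30, I at all 3 doses and L at 0.3 µg/mL). With the mean of its probes the rises with H, with I at 0.3 and 3 µg/mL and with L were not called, and that with L turned to -0.0093. Without the 9 arrays RPS27 was called in 7 groups and RPL21 in 10, RPL29 in 9, and RPL31, RPL36A and RPS7 in 8 each. With all arrays RPL21 and RPL22 fell and RPL7L1 rose in 4 groups each, RPS23 fell in 3 and rose in 1, and RPS2 and RPL7A fell in 3. RPL22 fell with A, L and M at 30 µg/mL and with L at 0.3 µg/mL. Since the groups share the same 8 controls, these counts are not independent of each other.

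By role, the stalk proteins RPLP1 and RPLP2, which recruit the elongation factors, passed in no group at 30 µg/mL. RPLP1 changed by -0.49 ± 0.23 with M, -0.52 with A, -0.56 with L and -0.37 with H, and it was among the members that lay below all others on the 9 arrays. RPL5 and RPL11 carry the 5S ribosomal RNA and, when free, bind MDM2. RPL5 fell by 0.36 ± 0.11 with M at 30 µg/mL (limma adjusted p = 0.0181), and RPL11 changed by -0.58 ± 0.25 (0.0911). Neither passed with another material at that dose. On the 9 arrays, 2 of them of M at 30 µg/mL, RPL11 read 11.16 to 13.3, against 13.05 to 13.62 on the other 110. RPL5 read 11.31 to 12.31 on the 9 and 11.77 to 12.65 on the others.

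With M at 30 µg/mL 4 of 10 paralogs fell and 1 rose, where 6.87% and 10.5% of all genes did, and no difference between a paralog and its partner was tested. RPS27L, a paralog of RPS27 that p53 induces, read 10.91, 10.89, 10.19, 10.33 and 10.99 against 11.02 to 11.77, all below the controls. It fell by 0.80 ± 0.15 (limma adjusted p = 3.13e-05), where RPS27 fell by 0.40. RPL26L1 fell by 0.44 ± 0.11 (0.00236), and RPL26 changed by -0.04 ± 0.27 with all arrays. RPL26 read higher on the 9 arrays, with a median of 13.42 against 12.32 on the other 110. Without the 9 arrays RPL26 fell too, by the value given below. RPL10L, a testis paralog read near background, rose by 0.11. RPL36AL changed by 0.64 ± 0.24 (limma adjusted p = 0.0548), and it was above all other arrays on the 9. RPL3L, RPL22L1 and RPL39L, also near background, changed by 0.00, 0.04 and -0.09 and were not called, and RPS4Y1 and RPS4Y2 fell by 0.37 and 0.38. The calls of RPS4Y1, RPS4Y2 and RPL10L were lost without the 9 arrays. Of RPL3, RPL7, RPL10, RPL22, RPL36A, RPL39 and RPS4X, the partners not yet given, RPL22 fell with M, by 0.30, and RPS4X changed by 0.21 ± 0.19.

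Of 9 measured genes that are mutated in Diamond-Blackfan anemia, a failure of red cell formation, 2 fell with M (RPL5 and RPS24), where 6.87% of all genes fell, and 1 with I (RPS7), where 1.30% did. RPS24 fell by 0.69 ± 0.25 (limma adjusted p = 0.0424), and read 0.12 above control without the 9 arrays. RPS10, RPS19, RPS26, RPL26 and RPL35A were not called at 30 µg/mL with either. No change of these was below -0.77 or above 0.26. Without the 9 arrays RPL26 changed by -0.72 and RPL35A by -0.28 with M (limma adjusted p = 0.00975 and 0.0356).

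Called members were counted by the pyrimidine start, with only 10 members in the class without it. The same split over all genes was not made. With M at 30 µg/mL 20 of the 56 members with it fell, and 4 of the 10 without it fell (RPL26L1, RPL27, RPS4Y2 and RPS27L). With I all 5 falling members that have a promoter in the table had it, and of the 3 that rose RPL7L1 did not. By level, 11 of the 39 members above 13 in controls and 17 of the other 39 fell with M (12 and 10 without the 9 arrays). No test was made of these counts.

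Probes of a gene often differed. For 38 members with more than 1 probe there were 50 further probes, and with M 34 of these changed with the sign of the brightest and 17 were called. Where both probes were called, the sign was the same in 9 of 9. With I 28 of 50 had the same sign and 7 were called, and 2 of the 3 pairs that were both called had the same sign, RPL7L1 being the other. A second RPL10A probe fell by 2.01 ± 0.31 with I (limma adjusted p = 8.94e-06 over all probes), while the brightest changed by 0.04 ± 0.06. A probe annotated to the pseudogene RPL21P28 fell by 2.04 ± 0.32 with I and by 1.12 ± 0.32 with H at 30 µg/mL (limma adjusted p = 1.84e-05 and 0.0143).

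Other genes of the translation apparatus were read as lists at 30 µg/mL. With M 8 of 34 translation factors fell and 5 rose, with a median of -0.08, where 6.87% and 10.5% of all genes fell and rose. EEF1B2, an exchange factor of elongation, fell by 0.68 ± 0.13 (limma adjusted p = 9.33e-05) and EIF3L and EIF3K, subunits of the initiation complex eIF3, by 0.51 and 0.74, while EIF5B, which joins the subunits, rose by 0.75 ± 0.16. Without the 9 arrays 2 fell and 3 rose, where 3.54% and 4.55% of all genes did, and EIF3L changed by -0.06. With I 1 fell (EIF3M, by 0.52) and 3 rose, where 1.30% and 2.62% of all genes did, among them the scaffold EIF4G1 by 0.66 ± 0.13 (limma adjusted p = 0.000792). EIF4G1 also rose with A, H and L, by 0.90, 0.69 and 0.60.

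Of 52 ribosome biogenesis genes 10 fell and 3 rose with M, where 6.87% and 10.5% of all genes did. The counts were 1 and 7 without the 9 arrays, where 3.54% and 4.55% did. POLR1D, a subunit of RNA polymerases I and III, fell by 0.60 ± 0.10, and BOP1 and NOLC1, of large subunit processing and the nucleolus, rose by 0.47 and 0.33. MYBBP1A and UBTF, which act on ribosomal RNA transcription, rose with A (0.73 and 0.58), H (0.64 and 0.53) and L (0.61 and 0.56), and MYBBP1A with I (0.47). With H both lost the call without the 9 arrays (limma adjusted p = 0.0601 and 0.0616). Of 11 host genes of small nucleolar RNAs, several of which share the pyrimidine start, 4 fell with M, where 6.87% of all genes fell, and 0 with I. ZFAS1 fell by 1.47 ± 0.26 with M (limma adjusted p = 1.32e-05) and by 0.81 without the 9 arrays, and SNHG8 by 0.60. Of 17 regulators, MTOR rose with M, A, H and L, by 0.27, 0.42, 0.43 and 0.33, and CDKN1A, the cell cycle inhibitor that p53 induces, rose by 0.59 ± 0.14 with M. Without the 9 arrays no regulator was called with M, where MTOR changed by 0.16 and CDKN1A by 0.33 (limma adjusted p = 0.385 and 0.0517). RPS6KB1, the S6 kinase, fell by 0.64 ± 0.21 with M (limma adjusted p = 0.023), and changed by -0.09 without the 9 arrays.

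The mitochondrial ribosome, whose proteins are encoded in the nucleus and read as 76 genes, had 34 falls and 6 rises with M (median -0.23), where 6.87% and 10.5% of all genes fell and rose. It had 17 and 2 without the 9 arrays, where 3.54% and 4.55% did. MRPL22 fell by 0.66 ± 0.09 (limma adjusted p = 2.11e-08) and MRPS23 by 0.62 ± 0.10 (8.41e-07). With H 19 fell and 2 rose, where 3.56% and 5.90% of all genes did, but without the 9 arrays 2 fell and 0 rose, where 3.94% were called. With I 4 fell and 1 rose, where 1.30% and 2.62% did. FAU, a small subunit protein outside the naming rule, changed by -0.14 ± 0.08 with M (limma adjusted p = 0.249). With B, C and D at 30 µg/mL limma called 0.743%, 0.0649% and 0.015% of all genes. Of these lists it called only 1 biogenesis gene, which rose with B. Without the 9 arrays it called several with B and C, among them 9 of the 76 mitochondrial genes that rose with B. In that fit 522 of 20046 genes rose and 333 fell with B, and 179 rose and 114 fell with C.

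**Figure D5:**
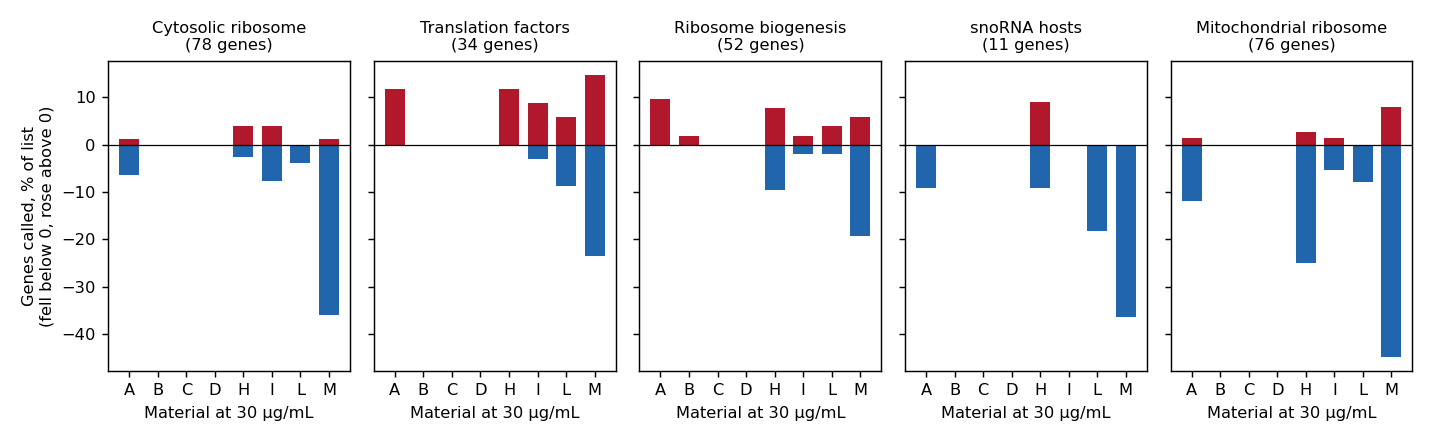
Share of each list that rose (above 0) or fell (below 0) by limma adjusted p under 0.05 (vertical axis, percent of the genes in the list) with each material at 30 µg/mL (horizontal axis), for the 78 members and 4 other lists. The bars for falls are longest with M in each list, with 28 of 78 genes in the cytosolic and 34 of 76 in the mitochondrial ribosome, and B, C and D have none or 1 call.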

How the data were processed

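Total RNA of 120 flasks of HepG2 cells was read on Illumina HT-12 v4 arrays. Each deposited value is a linear intensity of 1 probe. Per the labels and the series text, the authors used R 2.14.0 and beadarray 2.4.1. How background and normalization were handled was not given in those sources. Every array has a deposited median intensity of 98.4 and a range of 52.5 to 18529, so the values were already normalized between arrays, and detection p-values were not used. Such scaling removes differences in total RNA.

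Groups were taken from the labels. In 1 array of M the title and the concentration disagree (low dose and 3 µg/mL), so it entered no comparison. Of 48107 probes 30113 have 1 gene symbol, 8 have several and 17986 have none in the platform annotation, which gave 20046 genes by their brightest probe over all arrays. No 2 arrays were identical (smallest root mean square difference 0.0942).

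The log2 of the deposited values was modelled in R 4.3.3 by limma 3.58.1, with all 25 groups in a single lmFit and eBayes model and no covariates, and with Benjamini-Hochberg adjustment over all genes in a comparison. Arrays stood apart where the first component of all other genes lay over 5 scaled median absolute deviations from its median, a choice made after seeing the data. The fit was checked on simulated data. The alternatives tried were averaging the probes of a gene, leaving out dim genes, quantile and median scaling again, a replicate block, sets of 12 arrays, another prior, separate fits, and each array left out. The members, lists and role groups were chosen with earlier results of these data known. Named were, for each material at 30 µg/mL, up to 8 members of smallest adjusted p (the 3 of smallest p where none passed), up to 3 in other comparisons, the 10 called in the most groups, all role group members and up to 4 genes of each other list; further names were chosen after values were seen. Replicate numbers were checked as pairs. Deviations of arrays with the same number in different groups correlated at 0.0102 on average, from -0.822 to 0.881. Those with other numbers correlated at 0.00381 on average, so the averages show no pairing by number, and shared batches were not tested. Sequences were read with Python 3.11.15 and pandas 2.3.3 and plots drawn with matplotlib 3.10.9; protein sequences were not used here.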

Additional observations from a re-analysis of the deposited data

Results flagged for a closer look

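Sets of values of a group were tested for a sample far from the others by Dixon's ratio (gap over range), which chance passes in about 1 in 20 groups, and 8 of 94 sets passed. The median over small subunit members was lowest on the third M array at 30 µg/mL, at -0.33 (ratio 0.732), and highest on the third C array at 30 µg/mL, at 0.07 (0.87). The median over large subunit members was highest on the third B array at 30 µg/mL, at 0.03 (0.716). With A at 30 µg/mL the third array was lowest for RPL23A, at 8.02 (0.843), and for RPL13, at 9.08 (0.81). RPL21 was highest on the third I array at 0.3 µg/mL, at 12.08 (0.869), RPL29 was highest on the first I array at 30 µg/mL, at 8.45 (0.818), and RPL22 was lowest on the first L array at 30 µg/mL, at 10.15 (0.835). Of these 8 arrays and values, those of M, of A, of I at 0.3 µg/mL and of L are on arrays that stand apart on the other genes.

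3 members were called in opposite directions with different materials at 30 µg/mL. Passing limma's F test over the 8 materials was a condition of this listing. That test used the same arrays, so its p-values add no separate support. RPL34 rose with H and fell with M (adjusted p = 1.93e-14), RPS27 rose with H and I and fell with M (1.53e-13), and RPS23 rose with I and fell with M (1.73e-09). The calls of RPL34 and RPS27 with H were lost without the arrays that stand apart.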

How the results depend on the processing

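Counts of members called changed with the arrays and the spread used more than with the scaling. Centring and repeated quantile scaling moved no count or median past its limit. Shares of all genes were counted only for the fit of all arrays and the fit without the 9. The other counts in this section therefore stand without such a share. Without the 9 arrays that stand apart the counts were A at 3 µg/mL 7 (1 with all arrays), A at 30 10 (6), B at 3 1 (0), B at 30 5 (0), H at 0.3 3 (0), H at 3 10 (1), I at 0.3 6 (3), I at 3 17 (5), I at 30 22 (9), L at 0.3 26 (10), L at 3 10 (1), L at 30 6 (3), M at 0.3 1 (0), M at 3 7 (2), and H between 30 and 0.3 16 (7). Medians there were -0.0763 for the large subunit with A at 30 and -0.10 for the small with L at 0.3. Each group fitted with its controls alone gave A 3 and 2 at 3 and 30, H 0 and 0, I 0, 1 and 14 at 0.3, 3 and 30, L 6, 0 and 0, M 0 and 9 at 3 and 30, D 3, H 0 and M 0 between 30 and 0.3, and M against I 20. With sets of 12 arrays the counts were B at 30 1, H at 3 4, I at 0.3 5, I at 3 9, L at 3 3, M at 3 4, M at 30 18, and between doses H 3 and M 9. The medians were then 0.0158 and 0.0162 (small, B and H at 30), 0.003 (large, I at 30), and -0.13 and -0.12 (large and small, L at 0.3). The mean of a gene's probes gave A at 3 5, H at 3 4, H at 30 9, I at 0.3 8, I at 3 8, L at 3 2, L at 30 7 and H between doses 11. Its medians were -0.0142 (small, B at 30), -0.0554 (large, I at 30), -0.19 and -0.11 (large and small, L at 0.3), and it turned RPL7L1 with I at 30 to -0.10 and RPS27 with L at 0.3 to -0.0093. Without dim genes H at 3 gave 2, L at 3 2, L at 30 5, and the large median with A at 30 was -0.0777; the trended robust prior gave 1 for M at 3.

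With the replicate number as a block, which the pairing check did not bear out, the counts were 3 for A at 30, 2 for H at 0.3, 3 for H at 3, 5 for L at 0.3, 1 for L at 30 and 0 for M at 3, and the small median with H at 30 was 0.0101.

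Leaving out each array in turn gave 18 to 34 members for M at 30, lowest without array 3, and 6 to 19 between its doses. The ranges were 3 to 6 (A at 30), 0 to 1 (B at 30), 0 to 2 (H at 0.3), 0 to 4 (H at 3), 2 to 9 (H at 30), 4 to 10 (H between doses), 1 to 4 (I at 0.3), 3 to 6 (I at 3), 4 to 9 (I at 30), 0 to 2 (L at 3), 0 to 7 (L at 30) and 1 to 4 (M at 3). Large medians ran from -0.0911 to -0.0555 (A at 30) and -0.0412 to -0.0171 (I at 30), and small medians from -0.0088 to 0.0164 (B at 30), -0.0377 to 0.0188 (H at 30), 0.0012 to 0.0467 (I at 30) and -0.17 to -0.10 (L at 0.3). The cause of these shifts was not tested. Named members kept their direction except the pair above, and 66 of their values lost the call under other alternatives and 83 with an array left out. Dim probes, such as that of RPL37, limit what can be measured.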

Other observations

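The M array whose title and concentration disagree had a median over the large subunit members of -0.11 and over the small subunit members of -0.04 relative to the control means. The 4 arrays of M at 0.3 µg/mL had large subunit medians of -0.08 to -0.01, and the 4 at 3 µg/mL of -0.07 to -0.02.

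Some probes annotated to ribosomal protein pseudogenes also differed with M at 30 µg/mL, and many others were not called. The values are over all arrays, and 2 of the 5 M arrays stand apart. Values without these arrays are not given here. RPL23AP64 changed by -1.14 ± 0.37, RPL13AP6 by -0.65 ± 0.13 and RPS26P11 by -0.57 ± 0.10 (limma adjusted p = 0.0213, 0.000101 and 5.75e-06), while their parents RPL23A, RPL13A and RPS26 were not called there.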
